A study of Mus musculus with 31 samples.

Results

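A set of 10 genes of the lens capsule and of other basement membranes was followed in the eyes of Ftx-deficient and wild-type (WT) mouse embryos. They are Col4a1, Col4a2, Col4a3 and Col4a4 (type IV collagen chains), Lama1 and Lamc1 (laminin chains), Nid1 (nidogen), Hspg2 (perlecan), Sparc and Col18a1. Every probe that the array files name with one of these symbols was taken, which gave 17 of 55681 probes for 10 of 34832 gene names. Of the 10 genes, 8 (10 probes) had a mean normalized signal above 500 in WT females and were tested with 14052 probes in all, and Col4a3 and Col4a4 lay under this minimum. The arrays, of 1 colour, measured RNA from whole eyes at embryonic day 13.5, taken after the pigmented epithelium had been removed by surgery.

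The eyes came from C57BL/6N embryos in 4 groups, which were 3 WT females (numbered 1, 2 and 4, in which order their values are given), 3 WT males, 3 Ftx-/Y males and 11 Ftx-/- females. The Ftx allele is a germline deletion made by gene targeting, present in every cell of the animal and not driven by a Cre, and it also takes away the microRNAs of the locus (miRNA374 and miRNA421). The mutant eyes were chosen for a normal look, so the small or malformed eyes of some Ftx-/- females are not among them. Each Ftx-/- female eye was measured on 2 arrays, which were averaged, and each eye counted once. Nothing says whether any eyes came from the same embryo or litter, so the p-values are set against the spread between these eyes. That spread is pooled over the 4 groups, and eyes are taken as independent although they shared slides.

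Basement membranes are thin sheets of extracellular matrix that line epithelia, muscle and vessels. Laminin trimers assemble first at the cell surface, type IV collagen forms another network, and nidogen and perlecan link the networks. The lens capsule is an unusually thick basement membrane that surrounds the lens and is laid down by lens epithelial and fibre cells, and other basement membranes of the embryonic eye lie on the inner retina and around the hyaloid vessels. Sparc is a collagen-binding matrix protein made in quantity by lens and retinal cells, and Col18a1 encodes the collagen from which endostatin is cut.

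Slides could not be separated from the female comparison. The 6 WT eyes and Ftx-/Y eye 1 shared slide 1, Ftx-/Y eyes 2 and 3 shared slide 2 with Ftx-/- eyes 1 to 3, and slides 3 and 4 held only Ftx-/- females (eyes 4 to 7 and 8 to 11). Between 48.2% and 70.4% of probe spots were well above background on the arrays of Ftx-/- females, and between 54.7% and 65.3% on those of WT females. The Ftx probe A_55_P2175002 read 5.65 to 7.07 on the log2 scale in WT females, 6.66 to 6.79 in WT males, 3.72 to 4.21 in Ftx-/Y males and 3.04 to 5.22 in Ftx-/- females, with no overlap between WT and mutant eyes. The other Ftx probe, A_55_P2175007, was dimmer and stood clear of background on 2 of the 3 arrays of WT females and on 0 of the 3 of WT males. In the mutants it did so on 0 of the 3 arrays of Ftx-/Y males and 1 of the 22 of Ftx-/- females, so its fold changes rest on values near background. It was lower in Ftx-/- than in WT females without overlap (log2 fold change -2.06, adjusted p = 0.000916) and overlapped between Ftx-/Y and WT males (-0.58, adjusted p = 0.626).

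RefSeq windows (GRCm38.p6) from 250 bases before to 50 bases after the gene start were read for 7 of the 10 genes, as 8 windows, and none was read for Col4a3, Lama1 and Lamc1. Col4a1 and Col4a2 lie on opposite strands of chromosome 8 with overlapping 5′ ends, since the Col4a2 start is at 11312805 on the plus strand and the Col4a1 start at 11312826 on the minus strand. The 250 bases before the Nid1 start, at chr13:13437352-13437601 on the plus strand, are shown because Nid1 had the largest fold change of the 8 tested genes in females, with the GC box (GGGCGG) and the CCAAT box (here as its reverse complement) in capitals.
Nid1: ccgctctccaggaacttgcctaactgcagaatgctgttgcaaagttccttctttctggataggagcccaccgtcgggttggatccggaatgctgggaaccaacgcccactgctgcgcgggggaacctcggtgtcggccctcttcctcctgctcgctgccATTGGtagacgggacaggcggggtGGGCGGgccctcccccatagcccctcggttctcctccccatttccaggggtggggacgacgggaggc
On both strands, GGGCGG was found in 5 of the 8 windows (35.7% of all 32851 windows), CCAAT in 4 of 8 (37.4% of all) and TATAAA in 0 of 8 (13.6% of all). The Col4a1 and Col4a2 windows share 78 bases, and the only GGGCGG of the Col4a1 window lies in them, so it is counted for both genes. These are matches of letters in the windows and do not show binding.

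In the female comparison, Nid1 and Col4a2 were lower in Ftx-/- eyes than in WT eyes, Col18a1 was higher, and Col4a1, Lama1, Lamc1, Hspg2 and Sparc did not pass the test. The comparison asks what the loss of Ftx does to these genes in XX eyes. Thus 3 of 8 genes were called (adjusted p under 0.05), 1 higher and 2 lower, where 35.0% of all tested probes were called (16.8% higher and 18.2% lower). The median log2 fold change was -0.20 over the 8 genes and -0.01 over all probes tested. The share called among the 8 is close to that over all probes and is not a result about these genes as a group.

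Nid1 encodes the nidogen that bridges laminin and type IV collagen. Its tested probe (A_55_P2084308, chr13:13604435-13604494 of mm9) read 12.95, 13.12 and 13.34 on the log2 scale in WT females. WT males read 12.81, 12.96 and 12.77, and Ftx-/Y males 12.64, 12.74 and 12.74. In the 11 Ftx-/- females the lowest value was 12.15, the median 12.52 and the highest 12.93. All 11 mutant females thus lay under the lowest WT female, eye 8 by a narrow margin, and 11.4% of all probes were lower without overlap. The log2 fold change was -0.61 (SE 0.125, adjusted p = 0.00136), which is 0.657 of the WT level.

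Nid1 has 2 other probes, both dim, and their first 30 bases are shown beside those of the tested probe because the 3 oligonucleotides read separate parts of the transcript.
Nid1 A_55_P2084308: cagatgtatacaagtattggatgattcctc
Nid1 A_55_P2115713: ttctagagccataggacttcttcctaattc
Nid1 A_55_P2084303: tggaactgatcggagaactgagcttctatg
The third probe is placed by the files at chr13:13530138-13555992 (mm9), a span far longer than its 60 bases, so it crosses at least 1 intron. The second probe, at chr13:13602780-13602839, read 7.40, 7.26 and 7.80 in WT females and 6.33 to 7.18 (median 6.93) in Ftx-/- females. For the third, WT females read 7.31, 6.50 and 7.04, and Ftx-/- females 5.40 to 6.41 (median 6.01). Neither overlapped between the groups, and the log2 fold changes were -0.64 (SE 0.160, adjusted p = 0.011) and -0.94 (SE 0.207, adjusted p = 0.00469) in a fit over all probes. All 3 Nid1 probes were therefore lower in 11 of 11 mutant females. The third was well above background on 21 of the 22 arrays of Ftx-/- females and the second on all 22.

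**Figure D1:**
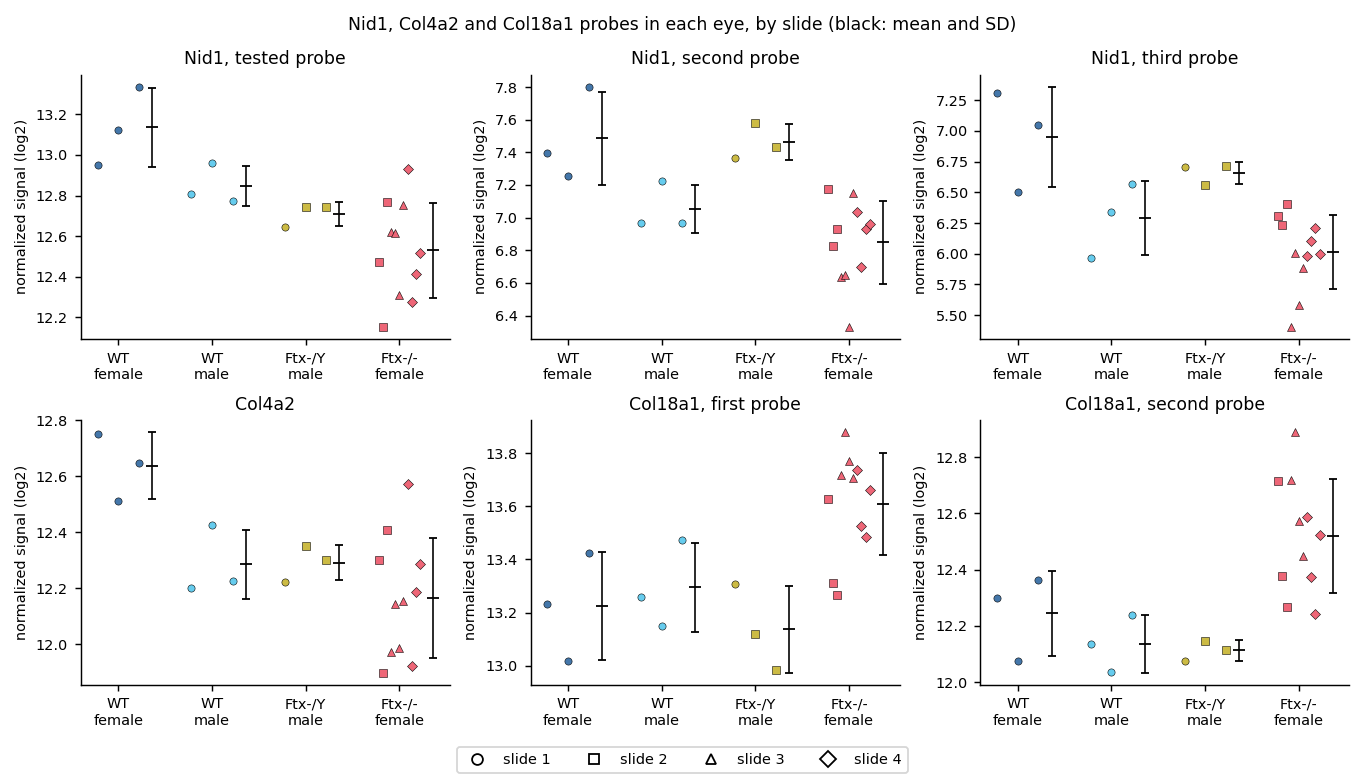
Normalized signal (log2) of 3 Nid1 probes, the Col4a2 probe and 2 Col18a1 probes in each of 20 eyes, by group, with the slide given by the marker and the mean and SD in black. For each Nid1 probe the 11 Ftx-/- females lie under the 3 WT females, and for its 2 dim probes the 3 Ftx-/Y males lie on the other side of the WT male mean.

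Col4a2 and Col4a1 encode the chains of the type IV collagen trimer found in nearly all basement membranes. Col4a2 (A_51_P491350, chr8:11448840-11448899 of mm9) read 12.75, 12.51 and 12.65 in WT females and 11.90 to 12.57 (median 12.16) in Ftx-/- females. Only mutant eye 8, at 12.57, reached into the WT range, and 11 of 11 mutant females lay below the WT mean. The log2 fold change was -0.47 (SE 0.113, adjusted p = 0.00385), or 0.722 of the WT level. Col4a1 (A_51_P124254), read from 10 spots per array, gave 12.56, 12.27 and 12.71 in WT females and 11.97 to 12.77 (median 12.26) in Ftx-/- females. Its groups overlapped widely, 9 of 11 mutant eyes lay below the WT mean, and the log2 fold change of -0.23 (95% interval -0.51 to 0.06, adjusted p = 0.205) did not pass. It was -0.35 without WT female 2 and -0.13 without WT female 4, and was called in neither.

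Col18a1 moved the other way. Its first probe (A_55_P2059352, chr10:76514926-76514985 of mm9) read 13.23, 13.02 and 13.43 in WT females and 13.26 to 13.88 (median 13.66) in Ftx-/- females. All 11 mutant eyes lay above the WT mean, although eyes 2 and 3 were within the WT range. The log2 fold change was 0.38 (SE 0.117, adjusted p = 0.0162), a ratio of 1.30. The second probe (A_55_P2124791) gave 0.27 (SE 0.108, adjusted p = 0.0552), with 10 of 11 eyes higher, and so missed the threshold. Both Col18a1 probes, and the dimmer Sparc probe, hold the polyadenylation hexamer AATAAA, which occurs in 10.1% of all probes. The 30 bases around it are shown, with the hexamer in capitals, because the letters are common to the probes of both genes; a match does not show that the transcript ends there.
Col18a1 A_55_P2059352: aaagaggcaccaAATAAAaatgacatttta
Col18a1 A_55_P2124791: atgtaatcctcaagaAATAAAaggaagcca
Sparc A_55_P2046807: caagtctttcaaAATAAAaagtaacaactt

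The laminin chain genes did not pass in females. Lama1, whose chain is typical of embryonic basement membranes, read 12.79, 12.76 and 12.96 in WT females and 12.36 to 13.56 (median 12.71) in Ftx-/- females. Eye 8 alone gave 13.56, and the next highest mutant eye was 12.82. The log2 fold change was -0.11 (95% interval -0.43 to 0.21, adjusted p = 0.6), and without eye 8 it was -0.20 (adjusted p = 0.075). Lamc1, the gamma chain of most laminins, read 11.57, 11.79 and 11.73 in WT females and 11.27 to 12.05 (median 11.51) in Ftx-/- females, with eye 8 again the highest. Its log2 fold change was -0.17 (95% interval -0.42 to 0.08, adjusted p = 0.272).

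Hspg2, for the proteoglycan perlecan, had the widest spread of the 8 genes. WT females read 10.29, 10.99 and 10.97, and Ftx-/- females 9.88 to 11.51 (median 10.29), with eye 8 at 11.51 and the next at 10.59. The log2 fold change was -0.40 (SE 0.234, adjusted p = 0.192), with 10 of 11 mutant eyes below the WT mean. Without eye 8 it was -0.52 (adjusted p = 0.0125) and Hspg2 was called, a setting added after the values were seen. Leaving out each WT or Ftx-/Y eye in turn, as planned, gave -0.63 to -0.28, with 0 calls. A second Hspg2 probe, well above background on 12 of 22 arrays of Ftx-/- females, was too dim to test at the minimum.

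Sparc had the smallest fold change of the 8 genes in females. Its main probe read 17.15, 17.14 and 17.33 in WT females and 16.99 to 17.30 (median 17.13) in Ftx-/- females, and no array was saturated. The log2 fold change was -0.09 (95% interval -0.20 to 0.02, adjusted p = 0.212). The second Sparc probe gave 0.03 (SE 0.279, adjusted p = 0.943) over a far wider spread. Its level followed the slide, with 12.41 to 12.76 in the 4 Ftx-/- eyes of slide 3 against 11.25 to 11.82 in the 7 Ftx-/- eyes of slides 2 and 4.

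**Figure D2:**
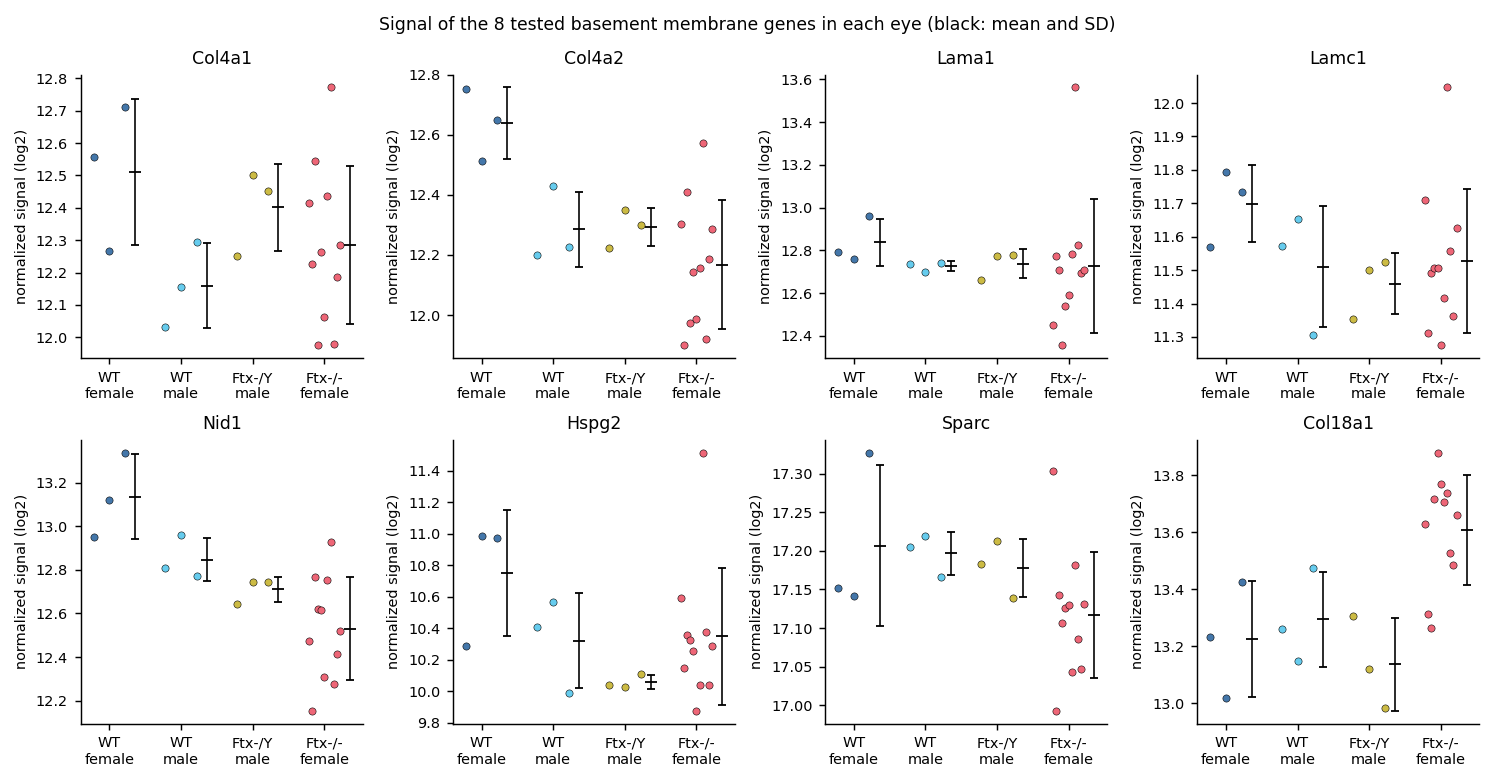
Normalized signal (log2) of the main probe of 8 genes in each of 20 eyes, in 4 groups, with the mean and SD in black; each panel has its own axis and probes cannot be compared with each other for level. Nid1 and Col4a2 sit lower and Col18a1 higher in Ftx-/- females than in WT females, and Ftx-/- eye 8 is the highest mutant eye for Lama1, Lamc1 and Hspg2.

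Col4a3 and Col4a4, whose chains join a trimer of the kidney glomerulus and a few other sites, were dim. Col4a3 was well above background on 1 of 3 WT male arrays and on 0 of the 28 arrays of the other groups. Col4a4 was best seen by probe A_55_P2143832, which was well above background on 30 of 31 arrays at a mean signal of 55.8 in WT females, 53.0 in WT males, 42.7 in Ftx-/Y males and 55.0 in Ftx-/- females. Its log2 fold change in females was -0.04 (95% interval -0.56 to 0.49). The other 2 Col4a4 probes were above background on 1 array and on none.

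The calls in females were set against the slide. Since no slide held both groups, a block for the slide could link them only through the Ftx-/Y males, and it left the directions and sizes while ending all 3 calls, with -0.77 (adjusted p = 0.203) for Nid1, -0.54 (adjusted p = 0.296) for Col4a2 and 0.43 (adjusted p = 0.297) for Col18a1. With the slide as a random block, Nid1 (-0.65, adjusted p = 0.0223) and Col4a2 (-0.49, adjusted p = 0.04) were called and Col18a1 (0.41, adjusted p = 0.0514) was not. Against the 3 WT females, the Ftx-/- eyes of slide 2, 3 or 4 alone gave -0.67, -0.56 and -0.60 for Nid1 and -0.43, -0.57 and -0.40 for Col4a2, each with an adjusted p under 0.05, in settings added after the values were seen. For Col18a1 they gave 0.18 (adjusted p = 0.322), 0.54 (adjusted p = 0.0013) and 0.38 (adjusted p = 0.0265). Col18a1 also lost its call without WT female 1 (0.39, adjusted p = 0.0573) or WT female 2 (0.28, adjusted p = 0.134). On the series table, without normalization between arrays, Nid1 (-0.34, adjusted p = 0.207) and Col4a2 (-0.20, adjusted p = 0.379) were smaller and lost their calls, and Col18a1 was larger (0.66, adjusted p = 0.0276). The part of the slide in these differences cannot be told apart from that of the genotype.

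In males, none of the 8 genes passed the test, and none had an unadjusted p under 0.05, where 0.0213% of all probes (3 of 14052) were called and 11.8% had an unadjusted p under 0.05. Col4a1 was 0.24 higher (95% interval -0.11 to 0.60) and Hspg2 0.26 lower (log2 fold change -0.26, interval -0.88 to 0.35) in Ftx-/Y than in WT males, and both intervals include 0. Nid1, at -0.14 (SE 0.157, adjusted p = 0.773), lay below all WT males in 3 of 3 Ftx-/Y males, where 9.38% of all probes did so. Its dim probe A_55_P2115713 instead lay above all WT males in 3 of 3 (0.41, adjusted p = 0.399), where 11.2% of all tested probes did so. Col4a2 and Lama1 differed by 0.01 each, with intervals of -0.29 to 0.30 and -0.39 to 0.42. For Col18a1 the value was -0.16 (-0.46 to 0.15).

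**Figure D3:**
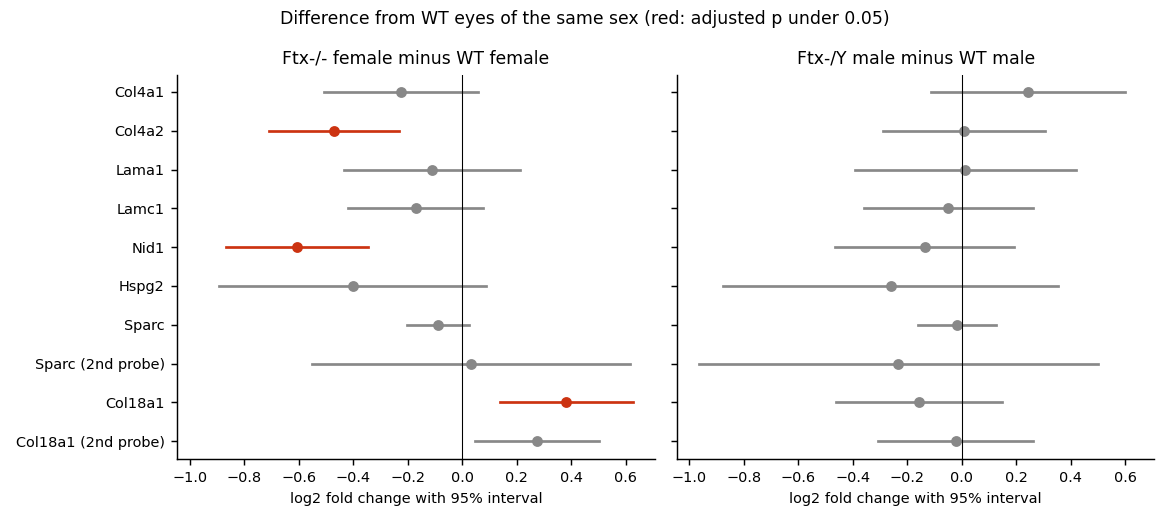
Log2 fold change, with its 95% interval, of the 10 tested probes in Ftx-/- against WT females (left) and Ftx-/Y against WT males (right); red marks an adjusted p under 0.05. Nid1 (-0.61), Col4a2 (-0.47) and Col18a1 (0.38) are red on the left, and every interval on the right includes 0.

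The effect of the Ftx deletion was compared between the sexes by the difference of both fold changes. It gave 0 calls among the 8 genes and 0 among all 14052 probes by limma, with 4 and 1946 (13.8%) at an unadjusted p under 0.05. The 4 genes were Col18a1, at 0.54 (SE 0.187, adjusted p = 0.224), Col4a2, at -0.48 (SE 0.182, adjusted p = 0.261), Nid1, at -0.47 (SE 0.201, adjusted p = 0.311), and Col4a1, at -0.47 (SE 0.217, adjusted p = 0.347). A difference between the sexes was therefore not shown for any of them.

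WT females and WT males were compared to see how far the members differ by sex alone. None of the 8 genes was called, where 0.0712% of all probes were, although 7 of 8 had a higher mean in females and the median log2 fold change was 0.24, against 0.01 over all probes. Col4a2 read 12.20, 12.43 and 12.23 in WT males, all under the 3 WT females, and gave 0.35 (SE 0.142, unadjusted p = 0.0227, adjusted p = 0.402). Lama1 was also higher in females without overlap, at 0.11 (SE 0.193), and 10.1% of all probes were. These are the same 3 WT females as in the comparison with Ftx-/- females, so the values of both comparisons share them.

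Ftx-/- females against Ftx-/Y males gave 1 call among the 8 genes, for Col18a1, where 1.96% of all probes were called. Col18a1 read 13.31, 13.12 and 12.98 in Ftx-/Y males and the mean of the females was higher by 0.47 (SE 0.117, adjusted p = 0.0432). All 11 females lay above the Ftx-/Y mean, and the groups overlapped, with Ftx-/- eye 3 (13.26) under Ftx-/Y eye 1. Its second probe was higher without overlap by 0.41 (SE 0.108, adjusted p = 0.0579), where 1.75% of all probes were. Within slide 2, which held both groups, the first probe differed by 0.35 (adjusted p = 0.405), and without Ftx-/Y eye 1, 2 or 3 it differed by 0.56, 0.46 and 0.40, with adjusted p values of 0.082, 0.259 and 0.284. On the series table it gave 0.67 (adjusted p = 0.426). The direction held under all 31 alternatives (0.26 to 0.67), and the call was lost in 17 of them, among them leaving out WT female 1 (adjusted p = 0.0533) or WT male 1 (adjusted p = 0.058), which enter only through the shared estimate of spread. Nid1 differed by -0.18 (SE 0.125, adjusted p = 0.465) and Col4a2 by -0.12 (SE 0.113, adjusted p = 0.575), with intervals of -0.44 to 0.08 and -0.36 to 0.11, so neither was called between the mutant groups. The 2 dim Nid1 probes were lower in females without overlap, A_55_P2115713 by 0.61 (log2 fold change -0.61, adjusted p = 0.0782) and A_55_P2084303 by 0.65 (log2 fold change -0.65, adjusted p = 0.162), where 2.74% of all tested probes were, and neither was called. Marker genes of other cells differed here as well. Lens markers had a lower mean in females for 14 of 15 (median log2 fold change -0.40), with 4 called lower, and the 3 tested pigment markers had a higher mean (median 1.13), with none called. Of 7 erythroid markers 2 were called lower, and of 3 macrophage markers 1 was called higher. Over all probes, 1.42% were called lower and 0.534% higher in this comparison. The part of these cell types in the Col18a1 value was not tested.

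Some members rose and fell together from eye to eye. With the group means taken out, the correlation over the 20 eyes was 0.94 for Lamc1 and Hspg2, 0.82 for Col4a1 and Col4a2, and 0.68 for Col4a2 and Nid1. Col18a1 stood apart, with values from -0.01 for Hspg2 to 0.36 for Sparc, but with the slide means taken out as well its values ran from 0.18 for Nid1 to 0.68 for Sparc. Outside the 10 genes, the probes most like Col4a1 were those of Arhgap31 (0.85), Preb (0.83), Spnb3 (0.82), Ift172 (0.81) and Capn3 (0.80), and those most like Lama1 were Brwd1 (0.93), Abca7 (0.92), Trrap (0.91), 1110012J17Rik (0.91) and Gpr98 (0.91). These are descriptions over 20 eyes that share slides and include eye 8.

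**Figure D4:**
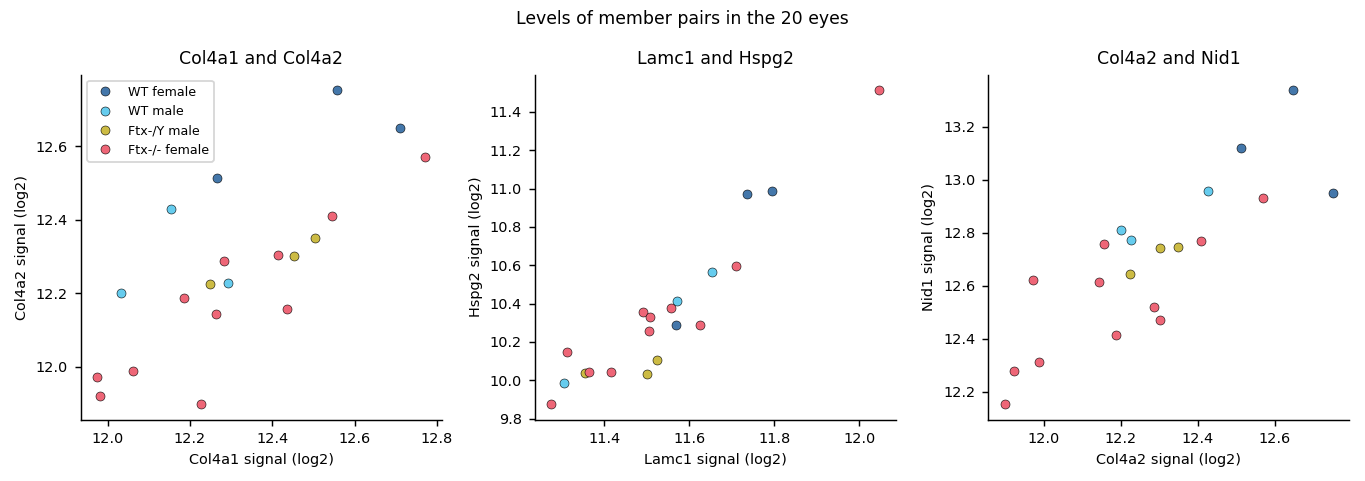
Normalized signal (log2) of Col4a2 against Col4a1, Hspg2 against Lamc1 and Nid1 against Col4a2 in the 20 eyes, coloured by group. The points rise together in each panel, and the correlations with group means taken out are 0.82, 0.94 and 0.68; the Ftx-/- female at the upper right of the Lamc1 panel is eye 8.

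Among 20 other genes for type IV collagen, laminin, nidogen and proteoglycan chains, 6 were tested in the female comparison, 1 was called higher and 1 lower, where 16.8% and 18.2% of all probes were. Agrn, the heparan sulphate proteoglycan agrin, rose by 0.40 (adjusted p = 0.0165) in 11 of 11 Ftx-/- females. Col4a6, on the X chromosome, fell by 0.31 (log2 fold change -0.31, adjusted p = 0.0134) in 11 of 11. Its X-linked partner Col4a5 gave -0.15 (adjusted p = 0.307). WT females read 11.64 to 12.12 and Ftx-/- females 11.36 to 11.78 for Col4a6, and the ranges overlap.

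Of 13 genes for basement membrane receptors, 6 were tested, with 1 called higher and 3 lower, against the same 16.8% and 18.2% of all probes. Itga6, the alpha subunit of laminin-binding integrins, fell by 0.43 (log2 fold change -0.43, adjusted p = 0.00643) without overlap. Ddr1, a collagen receptor kinase, gave -0.27 (adjusted p = 0.0181) and the syndecan Sdc1 -0.24 (adjusted p = 0.0203), whereas the syndecan Sdc2 rose by 0.65 (adjusted p = 0.000691). Of 18 genes for collagen processing and cross-linking, 14 were tested. Plod3, a lysyl hydroxylase, fell by 0.32 (log2 fold change -0.32, adjusted p = 0.0043), and Mia3, which helps load procollagen into transport carriers, by 0.22 (log2 fold change -0.22, adjusted p = 0.00261). P4hb, a subunit of the prolyl hydroxylase and a disulphide isomerase, rose by 0.31 (adjusted p = 0.00918) in 10 of 11 eyes and is named here after its value was seen.

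Proteases and their inhibitors were the last of the lists of basement membrane genes, with 7 of 13 tested. Ctsl, a lysosomal protease, rose by 0.29 (adjusted p = 0.00663), and Bmp1, which cuts procollagens and laminin chains, gave -0.28 (adjusted p = 0.0104). In all 4 lists, 11 of 33 tested genes were called in females, close to the 35.0% of all probes, and none was called in males, where 0.0213% of all probes were. These counts are no result about the lists. For the female values of these genes, too, the slide cannot be told apart from the genotype.

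Lens markers moved with the female comparison, and fewer lens cells cannot be told apart from less RNA per cell in whole eyes. No slide held both female groups, so for every marker list in females the slide cannot be told apart from the genotype. All 15 lens markers were well above background on every array, and 12 were called lower in Ftx-/- females, 0 higher, where 18.2% and 16.8% of all probes were, with a median log2 fold change of -0.53. Bfsp1 (-1.11) and Lim2 (-1.04), of lens fibre cells, and Foxe3 (-0.93), of the lens epithelium, fell most, whereas Cryaa gave 0.08 (adjusted p = 0.376). The summed signal of the list was 1235200 to 1376700 in WT females, 1255300 to 1291400 in WT males, 1225700 to 1275000 in Ftx-/Y males and 966540 to 1258700 in Ftx-/- females. Eye 8, the highest mutant eye for Nid1 and Col4a2, also had the highest lens sum of the 11, whereas by the mean log2 signal of the same markers eye 3 (14.27) was above eye 8 (14.21). The part of lens tissue in the lower Nid1 and Col4a2 values was not tested.

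Markers of cells around the eye were also measured. Periocular mesenchyme markers, of which 9 of 13 were well above background on every array, summed to 5443 to 7440 in WT females, 6675 to 15858 in WT males, 6349 to 11879 in Ftx-/Y males and 7371 to 53942 in Ftx-/- females. Of the 2 tested, Col1a2 rose by 1.09 (adjusted p = 0.0475) and Col5a1 gave -0.21 (adjusted p = 0.321). The signal minimum is set on WT females, so the markers dim in WT females were not tested, whatever their level in Ftx-/- eyes. Pigment cell markers (7 of 8) summed to 5354 to 7845 in WT females, 8550 to 13166 in WT males, 5232 to 7824 in Ftx-/Y males and 3431 to 34484 in Ftx-/- females, and all 3 tested had a higher mean in Ftx-/- females (median log2 fold change 0.81), with 1 called, where 16.8% of all probes were called higher. Endothelial markers (12 of 13) summed to 20278 to 22160 in WT females and 14896 to 26996 in Ftx-/- females. Of 6 tested, 3 had a higher and 3 a lower mean in Ftx-/- females (median log2 fold change 0.03). Kdr alone was called, at -1.21 (adjusted p = 0.00488), where 18.2% of all probes were called lower. Mural cell markers (7 of 8) summed to 5384 to 5912 and 4441 to 7476, and of the 2 tested Notch3 gave -0.25 (adjusted p = 0.0165) and Tagln 0.38 (adjusted p = 0.363). The part of these cells in the Col18a1 value was not tested.

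Blood and retinal markers were measured in the same way. Erythroid markers (8 of 9) summed to 207020 to 262690 in WT males and 305460 to 633260 in Ftx-/Y males, and to 233800 to 267580 and 211900 to 384690 in WT and Ftx-/- females. Of 7 tested in females, 4 had a higher and 3 a lower mean in Ftx-/- eyes (median log2 fold change 0.02). Hbb-bh1 (1.28, adjusted p = 0.00183) and Hbb-y (0.53, adjusted p = 0.0264) were called, where 16.8% of all probes were called higher. Retinal markers (14 of 14) summed to 306450 to 369190 in WT females and 280700 to 343890 in Ftx-/- females, with 4 of 14 called higher, among them Sox2 (0.37) and Isl1 (0.33), and 3 lower, among them Tubb3 (-0.46) and Atoh7 (-0.32), where 16.8% and 18.2% of all probes were. Macrophage markers (8 of 8) summed to 5819 to 6157 and 4985 to 7014, with none of 3 called.

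**Figure D5:**
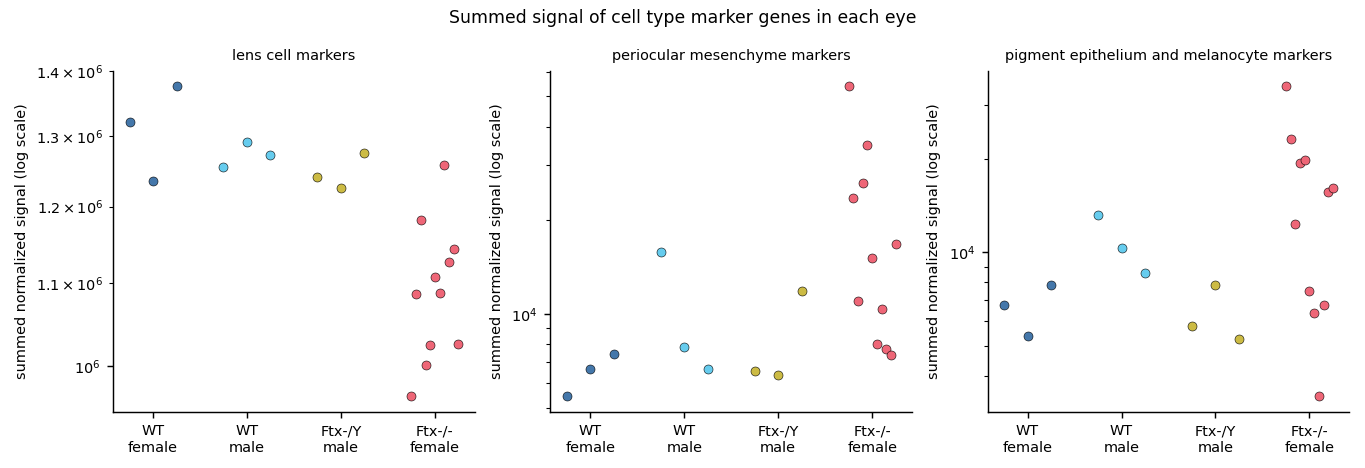
Summed normalized signal (log axes) of lens, periocular mesenchyme and pigment cell markers in each of 20 eyes, by group. The lens sum is lower in most Ftx-/- females (966540 to 1258700) than in WT females (1235200 to 1376700). The sums of both other lists spread over a wider range in the 11 Ftx-/- females than in the other groups of 3 eyes each. A range widens with the number of eyes, so these ranges do not compare the variability of the groups.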

How the data were processed

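RNA of 20 eyes was measured on 31 arrays. The authors deposited, per spot, the background-subtracted intensity given by Feature Extraction (11.0.1.1 per the file headers), with probe positions in mm9, and a series table of the same values, used here as an alternative on the log2 scale. The number of eyes limits the precision.

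Arrays were brought to one scale by quantile splines, as the study's methods name them, rewritten in R 4.3.3. Spots flagged as outliers were dropped, log2 values were averaged over the spots of each probe and then over the arrays of each eye, and testing was limited to probes whose WT female mean exceeded 500. Groups were compared with limma 3.58.1 (trend) in a fit over all 20 eyes, with Benjamini-Hochberg adjustment over all 14052 probes. The fit was also run on simulated data with independent eyes and no slide effect, which cannot speak to the part of the slide. A gene is represented by its brightest probe in WT females. From the other lists, up to 3 rises and 3 falls called in females and shared by all 11 eyes are named. Members and lists were chosen with earlier results of these data known. Symbols are those of the files. The alternatives were other normalizations, filters, blocks, thresholds and left-out eyes.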

Additional observations from a re-analysis of the deposited data

Results flagged for a closer look

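The 2 dim Nid1 probes, both under the signal minimum, had mean differences of opposite sign in the sexes, since all 11 Ftx-/- females lay below the WT female mean and all 3 Ftx-/Y males above the WT male mean. The difference of both fold changes was -1.05 for A_55_P2115713 (SE 0.257, adjusted p = 0.209 over all probes) and -1.31 for A_55_P2084303 (SE 0.331, adjusted p = 0.214), and neither passed. In males the 2 probes gave 0.41 (adjusted p = 0.399) and 0.37 (adjusted p = 0.583), whereas the brighter Nid1 probe gave -0.14.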

How the results depend on the processing

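In the female comparison the directions of Nid1, Col4a2 and Col18a1 held under all 30 alternatives (Nid1 -0.77 to -0.34, Col4a2 -0.57 to -0.20, Col18a1 0.18 to 0.66). Nid1 kept its call in 27 of them, Col4a2 in 28 and Col18a1 in 22. In males no alternative called any of the 8 genes. In females the log2 changes of the uncalled genes Col4a1 (0.05), Lama1 (0.15) and Lamc1 (0.11) turned positive on the series table without normalization between arrays, and that of Lama1 (0.11) with the Ftx-/- eyes of slide 4 alone, none of them called. The cause of a lost call was not tested. The number of eyes, 3 in each group but one, limits all comparisons, and the Col4a3 probe and 2 of the 3 Col4a4 probes lie at or near background.

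The counts that moved by over 1.5 times are given here as genes of the 8 called and as probes called over all genes, where females and males stand for Ftx-deficient against WT. On the values of the series table, Col18a1 alone (1 gene) and 2802 probes were called in females, 0 probes in males, and 0 genes and 12 probes between the mutant groups. Without the signal minimum, 8809 probes were called in females, 55 in males, 236 between WT females and males, 5 for the difference between the sexes, and 487 (0 of the 8 genes) between the mutant groups. Probes well above background on every array of a group gave 8701 in females, 1 in males, 129 between WT groups and 443 between mutant groups. With array 2 alone, 1 probe was called in males and 176 (0 genes) between mutant groups. With the 2 groups of a comparison fitted alone, 0 probes were called in males and 77 (0 genes) between mutant groups. With the slide as a fixed block, 0 genes and 11 probes were called in females, 9 in males and 10 (0 genes) between mutant groups. As a random block it gave 2453 in females, 0 in males and 82 (0 genes) between mutant groups. Within slide 1, which holds 1 Ftx-/Y eye, assumed to vary like the WT eyes, 6 probes were called in males, and within slide 2, 8 (0 genes) between mutant groups. No slide holds both female groups.

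The limits of the study (fold above 1.2 or below 0.8, unadjusted p under 0.05) gave 799 probes in males, 609 and 1 gene (Col4a2) between WT groups, 954 between mutant groups, and 1412 probes and 4 genes for the difference between the sexes. An adjusted p under 0.01 left 2875 probes in females, 0 in males and 27 (0 genes) between mutant groups. The methods' unequal-variance test on the linear signals, an approximation with 3 eyes a group, gave at the study's limits 3282 probes in females, 428 in males, 200 and 1 gene (Col4a2) between WT groups, and 1113 between mutant groups. After Benjamini-Hochberg adjustment it gave 1 gene (Col4a2) in females, 0 probes in males, 0 between WT groups and 956 (0 genes) between mutant groups.

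Leaving out each WT or Ftx-/Y eye in turn gave 2 to 3 genes and 3148 to 5027 probes in females, 0 to 362 probes in males (362 without WT male 3), 7 to 21 between WT groups (21 without WT female 2) and 0 to 1 gene and 15 to 272 probes between mutant groups. Without Ftx-/- eye 8, 4 genes and 5143 probes were called in females, with Hspg2 added, 371 probes between mutant groups, and 0 probes in males. With the Ftx-/- eyes of slide 2 alone, 22 probes (0 genes) were called between mutant groups and 7 in males, whose estimate of spread changes with the eyes in the fit. The eyes of slide 3 alone gave 7 genes (all but Sparc) and 6948 of all 14052 probes in females, 4825 probes and 2 genes between mutant groups, 64 probes in males, and 2755 probes and 3 genes (Col4a1, Col4a2 and Col18a1) for the difference between the sexes. Those of slide 4 alone gave 121 probes (0 genes) between mutant groups. These 4 settings were chosen after seeing the data.

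With the replicate number as a block, 3233 probes were called in females, 0 in males, 23 (0 genes) between mutant groups and 1 for the difference between the sexes. Nid1 (-0.65, adjusted p = 0.0112) and Col4a2 (-0.52, adjusted p = 0.022) were called in females and Col18a1 (0.29, adjusted p = 0.0674) was not. Eyes with the same number had correlations of -0.60 to 0.30, with 7 of 16 pairs above 0.1. Pairs with different numbers were not set beside them, so whether the number stands for anything shared was not tested.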
